A study of Homo sapiens with 6 samples.

Results

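A group of 15 low-expressed genes gave reads in all 3 vector control libraries of MIA PaCa-2 cells and almost none in the 3 libraries from cells with a knockout of LINC00901. They were CAMK1G, SYT14, RELN, CRLF2, DGKI, VCAN, ZNF385D, RYR2, LMNTD1, CARD16, SLPI, G0S2, ZNF462, PEAR1 and HAPLN1. The rule asked for an FPKM of at least 0.3 and below 3 in each control and of at most 0.05 in each KO library, and after some families were left out by name 15 of the 18268 rows of the table met it. FPKM is a read level scaled by transcript length and by the size of the library. Genes whose names start with KLK, MMP, PSG, HLA, HOX, SLC, COL, ITG or HIST were left out, which removed 4 further rows that met the values (HOXB8, HLA-DPA1, MMP12 and HLA-DRB5). The genes were thus chosen by their FPKM in both groups, and these values are a description and carry no test.

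MIA PaCa-2 is an established human pancreatic cancer cell line. Total RNA was sequenced from 3 libraries labelled LINC00901 KO, LINC00901 being a long non-coding RNA gene, and from 3 libraries of the vector control, labelled LCV2. Both groups grew in DMEM with fetal bovine and horse serum. The labels do not say whether the replicates came from separate cultures, or whether the knockout line was 1 clone or a pool, so each p-value reflects only how much these particular libraries vary, and that variation may be technical. LINC00901 itself was not analysed here, so the knockout was not checked in the values. The labelled cell type is epithelial: the epithelial keratin gene KRT18 was at 28.8 to 79.4 FPKM, whereas the epithelial adhesion genes EPCAM and CDH1 were at most at 0.14 and 0.02 FPKM, and the mesenchymal filament gene VIM was at 460 to 675 FPKM.

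FPKM sums ran from 123107 to 134389 over the 6 libraries, and the number of reads behind them is unknown. One library of each group stood apart. Across the 9624 rows with at least 1 FPKM in at least 3 libraries, vector control 1 had a Pearson correlation on the log2(FPKM + 1) scale of 0.90 with vector control 2 and 0.91 with vector control 3, but of 0.93 with KO 2 and 0.93 with KO 3. Vector controls 2 and 3 had a correlation of 0.98, and KO 2 and KO 3 of 0.97. KO 1 had a correlation of 0.92 with each of vector controls 2 and 3 and of 0.93 with KO 2 and KO 3. These are correlations across genes, which are not independent replicates. The FPKM of the 15 genes summed to 13.2, 12.5 and 11.7 in vector controls 1, 2 and 3, and to 0.09, 0.15 and 0.06 in KO libraries 1, 2 and 3. The rule fixed the direction of these sums in every library, so they say nothing about the labels of vector control 1 and KO 1.

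The 15 genes belong to no single pathway, and their products work in the extracellular matrix, in calcium and lipid signalling, at the cell surface, in the nucleus and in innate immunity. Several are best known from tissues other than the pancreas. Reelin is a matrix glycoprotein that guides migrating neurons, RYR2 is the calcium release channel of heart muscle, and versican and link protein hold together hyaluronan-rich matrix. All 15 are annotated as protein-coding.

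**Figure D1:**
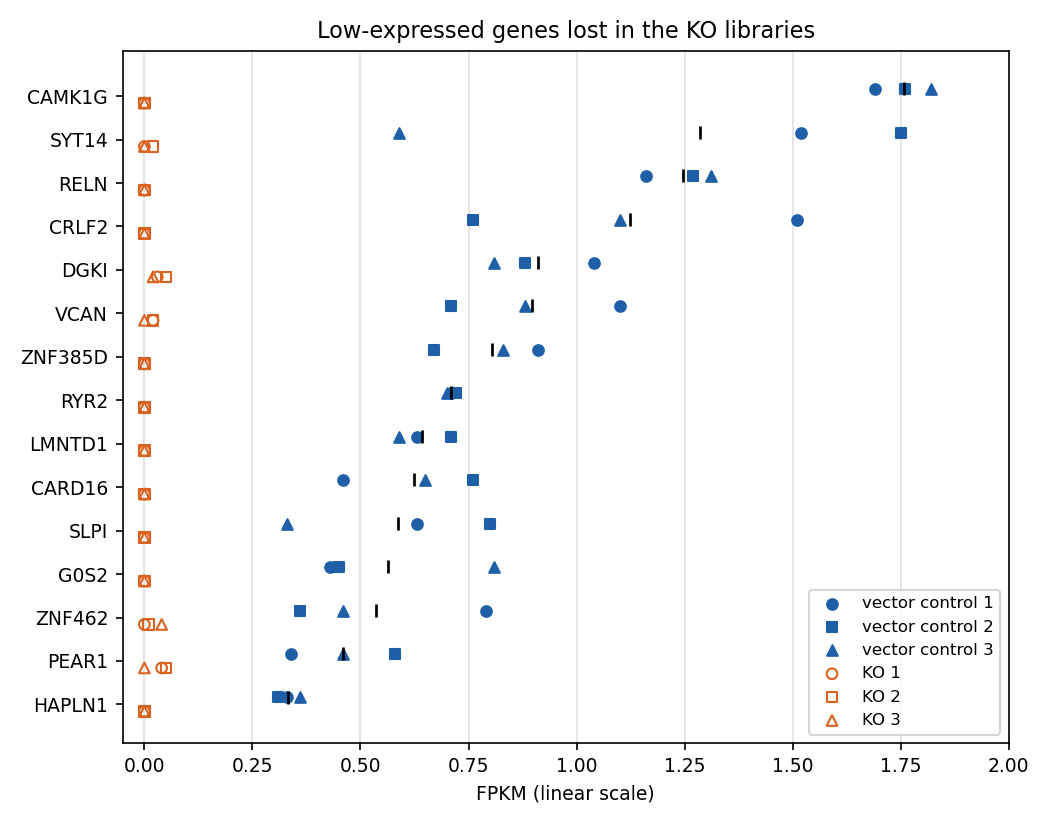
FPKM of each of the 15 genes (linear axis) in the 3 vector controls (filled blue) and the 3 KO libraries (open orange), with marker shape for the replicate number and a black tick at the control mean. Control values lie from 0.31 to 1.82 FPKM and KO values from 0 to 0.05 FPKM.

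A pair of regions held 5 of the 15 genes, and their promoters are shown first. That of RELN is added, since RELN had the highest mean control FPKM of the other genes. CAMK1G, G0S2 and SYT14 lie in this order on chromosome 1, and VCAN and HAPLN1 are next to each other on chromosome 5. The sequences are the 250 bases before the start of each gene, written 5′ to 3′ on the gene's strand, from RefSeq on GRCh38.p14. Capitals mark matches to 8 motifs, each searched on both strands. AP-1 was spelled TGANTCA and the E-box was spelled CACGTG. The kappa B motif was searched in a form of 9 letters, GGGNNTTCC, and in one of 10 letters. The GC box was spelled GGGCGG, and neighbouring GC boxes can overlap. The TEAD motif was spelled CATTCC and the TATA motif was spelled TATAAA. The last motif was CCAAT. The positions are chr1:209583464-209583713 on the plus strand for CAMK1G, chr1:209675162-209675411 on the plus strand for G0S2, chr1:209937967-209938216 on the plus strand for SYT14, chr5:83471494-83471743 on the plus strand for VCAN, chr5:83720856-83721105 on the minus strand for HAPLN1 and chr7:103989659-103989908 on the minus strand for RELN.
CAMK1G: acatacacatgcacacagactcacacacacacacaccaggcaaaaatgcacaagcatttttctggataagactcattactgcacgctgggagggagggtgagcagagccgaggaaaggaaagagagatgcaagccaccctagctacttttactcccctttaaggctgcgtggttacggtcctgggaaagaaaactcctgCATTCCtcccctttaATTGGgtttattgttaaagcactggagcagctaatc
G0S2: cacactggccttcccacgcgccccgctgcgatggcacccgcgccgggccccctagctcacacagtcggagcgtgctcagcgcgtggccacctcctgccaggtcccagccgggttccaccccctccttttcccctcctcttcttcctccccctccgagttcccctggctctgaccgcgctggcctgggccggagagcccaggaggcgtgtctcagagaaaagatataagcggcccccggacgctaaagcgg
SYT14: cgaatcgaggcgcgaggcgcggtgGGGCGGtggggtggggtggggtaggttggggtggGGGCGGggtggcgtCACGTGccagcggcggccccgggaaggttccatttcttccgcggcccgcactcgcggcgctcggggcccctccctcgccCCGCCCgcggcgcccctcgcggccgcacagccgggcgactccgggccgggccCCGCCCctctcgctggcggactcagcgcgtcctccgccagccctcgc
VCAN: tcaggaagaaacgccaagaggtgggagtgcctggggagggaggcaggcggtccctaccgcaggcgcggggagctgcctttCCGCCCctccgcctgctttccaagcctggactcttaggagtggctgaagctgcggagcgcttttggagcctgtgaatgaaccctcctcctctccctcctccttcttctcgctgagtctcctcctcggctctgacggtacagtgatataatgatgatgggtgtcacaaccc
HAPLN1: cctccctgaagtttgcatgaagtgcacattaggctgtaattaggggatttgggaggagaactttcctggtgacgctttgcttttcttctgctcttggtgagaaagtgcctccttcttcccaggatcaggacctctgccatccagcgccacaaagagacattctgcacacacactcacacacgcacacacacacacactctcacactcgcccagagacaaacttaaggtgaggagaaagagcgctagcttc
RELN: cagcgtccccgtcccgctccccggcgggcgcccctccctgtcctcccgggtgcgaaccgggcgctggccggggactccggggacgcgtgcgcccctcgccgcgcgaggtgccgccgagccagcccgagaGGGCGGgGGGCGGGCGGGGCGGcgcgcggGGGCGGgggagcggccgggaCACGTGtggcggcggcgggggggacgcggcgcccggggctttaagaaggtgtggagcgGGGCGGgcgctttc

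The 6 promoters differ in letters and in base composition. CAMK1G has a CCAAT match at -36 and a TEAD match at -51, counted from the gene's start, and no GC box. SYT14 and RELN each have an E-box, at -178 and -72, beside 4 and 6 GC boxes. VCAN has 1 GC box at -170, and none of the motifs is in the window of G0S2 or HAPLN1. The table held promoters for 11 of the 15 genes, and those of CRLF2, CARD16, SLPI and ZNF462 were not analysed here.

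Over these 11 promoters no motif was present in more than 6. A GC box was in 6 of 11, and in 42.3% of the 27305 promoters of the table. The E-box was in 2 of 11 (RELN and SYT14) and in 6.49% of the table, the TEAD letters in 3 of 11 (CAMK1G, LMNTD1 and RYR2) and in 11.9%, and the AP-1 letters in 1 of 11 (LMNTD1) and in 6.60%. CCAAT was in 1 of 11 and in 33.0% of the table. The kappa B letters were in none of the 11, and in 5.81% (9 letters) and 1.73% (10 letters) of the table, and TATAAA was in none of the 11 and in 11.1%. The ratio of observed to expected CpG was at least 0.6 in 6 of 11 promoters (54.5%), and in 47.4% of the table. It ran from 0.26 in LMNTD1 to 1.02 in RELN, so that promoters rich and poor in CpG are both present. These matches describe letters and show no binding.

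Of the matrix and secreted products, RELN had the highest level. RELN encodes reelin, a large secreted glycoprotein that signals through the lipoprotein receptors VLDLR and LRP8. RELN was at 1.16, 1.27 and 1.31 FPKM in vector controls 1, 2 and 3 and was listed at 0 in all 3 KO libraries. Its 3 control values were close together (1.25 ± 0.08 FPKM, SD, n = 3). The receptor genes were present in both groups: VLDLR was at 1.05 to 1.92 FPKM in the controls and 2.20 to 3.65 FPKM in the KO libraries, and LRP8 at 1.85 to 3.05 and 1.69 to 2.26 FPKM.

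VCAN encodes versican, a chondroitin sulfate proteoglycan that binds hyaluronan, and HAPLN1 encodes the link protein that stabilises that bond. VCAN was at 1.10, 0.71 and 0.88 FPKM in the controls and at 0.02, 0.02 and 0 FPKM in the KO libraries. HAPLN1 had the lowest level of the 15 genes, with 0.33, 0.31 and 0.36 FPKM in the controls and 0 in all KO libraries. Neither gene's groups overlapped, as the rule required. Other genes of the family were not restricted to the controls: BCAN (brevican) was at 0.33 to 0.59 FPKM in the controls and 0.55 to 0.65 FPKM in the KO libraries, and HAPLN3 at 0.10 to 0.78 and 0.28 to 0.31 FPKM. The hyaluronan receptor gene CD44 was at 19.4 to 41.8 FPKM in the controls and 12.2 to 25.0 FPKM in the KO libraries, ranges that overlap.

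SLPI encodes a secreted inhibitor of neutrophil elastase and other serine proteases of mucosal surfaces. SLPI was at 0.63, 0.80 and 0.33 FPKM in the controls and at 0 in all KO libraries, and its control values spread 2.42-fold. Its transcript is the shortest of the group, at 0.596 kb, so few fragments stand behind these values. The related inhibitor gene PI3 was at 0.17 FPKM in vector control 2 and listed at 0 in the other 5 libraries.

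Calcium signalling gave CAMK1G, RYR2 and SYT14, and lipid second messengers gave DGKI. CAMK1G encodes a calcium and calmodulin dependent protein kinase known from neurons, and it had the highest level of the 15 genes. CAMK1G was at 1.69, 1.76 and 1.82 FPKM in the controls (1.76 ± 0.07 FPKM, SD, n = 3) and at 0 in all KO libraries. Of the other calmodulin-dependent kinases, CAMK4, CAMK2A and CAMKV reached at most 0.03, 0.04 and 0.03 FPKM in any library. CAMK1 was at 4.95 to 6.65 FPKM in the controls and 5.74 to 7.93 FPKM in the KO libraries. CAMK1D was at 0.31 to 0.57 FPKM in the controls and 0.66 to 1.06 FPKM in the KO libraries, so that its values lay higher in the KO libraries, where CAMK1G was listed at 0.

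RYR2 had the tightest controls of the group, at 0.71, 0.72 and 0.70 FPKM (0.71 ± 0.01 FPKM, SD, n = 3), and was listed at 0 in all KO libraries. RYR1 and RYR3, the other ryanodine receptor genes, reached at most 0.03 and 0.08 FPKM in any library, so that RYR2 was the ryanodine receptor gene with the highest level in each control. The inositol trisphosphate receptor genes, whose products release calcium from the same store, were present in both groups. ITPR2 was at 1.05 to 1.48 FPKM in the controls and 1.98 to 2.54 FPKM in the KO libraries, and ITPR3 at 20.4 to 31.4 and 16.3 to 18.3 FPKM. Neither passed the limma test across all genes.

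SYT14 encodes a member of the synaptotagmin family of membrane trafficking proteins. SYT14 was at 1.52, 1.75 and 0.59 FPKM in the controls and at 0, 0.02 and 0 FPKM in the KO libraries. Vector control 3 was the low one, and the control values spread 2.97-fold, the widest spread of the 15. Of 15 other synaptotagmin genes with a row of their own, SYT7 had the highest values in the controls, at 0.41, 0.51 and 0.43 FPKM. SYT14 exceeded it in every control, though its 0.59 FPKM in vector control 3 lay near the 0.43 FPKM of SYT7 there.

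DGKI encodes diacylglycerol kinase iota, which turns the second messenger diacylglycerol into phosphatidic acid. DGKI was at 1.04, 0.88 and 0.81 FPKM in the controls and at 0.03, 0.05 and 0.02 FPKM in the KO libraries. It was the only gene of the 15 above 0 in all 3 KO libraries. The other diacylglycerol kinase genes with a tested row of their own, DGKD, DGKE, DGKH, DGKQ and DGKZ, had values above 0 in all 6 libraries. Of these, DGKE was lower in each KO library (0.88 to 3.15 FPKM) than in any control (3.58 to 3.89 FPKM), with a log2 fold change of -0.79 that did not pass the test (limma with Benjamini-Hochberg adjustment, adjusted p = 0.225). So was the joined row of ETV5 and DGKG, at 2.01 to 3.55 FPKM in the KO libraries and 4.01 to 4.83 FPKM in the controls (log2 fold change -0.51, limma adjusted p = 0.247). That row cannot tell DGKG from ETV5. DGKA, which was not tested, lay higher in the KO libraries (0.78 to 1.04 FPKM) than in the controls (0.38 to 0.58 FPKM). DGKD, DGKH, DGKQ and DGKZ had log2 fold changes of 0.07, 0.29, 0.21 and -0.22, and none was called.

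Genes for cell-surface receptors were CRLF2 and PEAR1. CRLF2 encodes the receptor chain that binds thymic stromal lymphopoietin (TSLP) together with the interleukin 7 receptor chain IL7R, and is known from dendritic cells and B cell leukaemia. CRLF2 was at 1.51, 0.76 and 1.10 FPKM in the controls and at 0 in all KO libraries. TSLP and IL7R were listed at 0 in all 6 libraries, whereas JAK1, JAK2, STAT5A and STAT5B, whose products signal below the receptor, had values above 0 in all 6. CRLF2 lies in the pseudoautosomal region, where the X and Y chromosomes carry the same sequence. How reads were divided between such copies is not stated in the labels.

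PEAR1 encodes a receptor with epidermal growth factor repeats that is known from platelets and endothelial cells. PEAR1 was at 0.34, 0.58 and 0.46 FPKM in the controls and at 0.04, 0.05 and 0 FPKM in the KO libraries. Its KO values reached the ceiling of the rule. The endothelial marker genes summed to 7.73 to 15.9 FPKM in the controls and 10.9 to 17.1 FPKM in the KO libraries, most of it from EGFL7 (6.29 to 14.2 and 9.60 to 15.2 FPKM), and 8 of the 15 markers were listed at 0 in all 6 libraries. CDH5, the cadherin gene of endothelial junctions, was at 0.33, 0.17 and 0.14 FPKM in the controls and at 0 in all KO libraries, and ROBO4 was at 0.42, 0.31 and 0.34 FPKM in the controls and at 0.01, 0.11 and 0.10 FPKM in the KO libraries. Not all endothelial markers shared this fall. ESAM and EGFL7, the 2 markers tested, were not lower (log2 fold changes 0.12 and 0.18, limma adjusted p = 0.83 and 0.81). CLDN5 was at 0.09, 0 and 0 FPKM in the controls and at 0, 0.04 and 0.16 FPKM in the KO libraries. PECAM1 and FLT1 reached at most 0.01 and 0.03 FPKM in any library, and they and CLDN5 were too low in the controls to show a fall. The part of endothelial cells in the values of PEAR1 was not tested.

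Nuclear products were those of ZNF385D, ZNF462 and, by its lamin tail domain, LMNTD1. ZNF385D encodes a zinc finger protein and is the longest gene of the group. ZNF385D was at 0.91, 0.67 and 0.83 FPKM in the controls and at 0 in all KO libraries. Its relatives differed from it: ZNF385A was at 0.53 to 1.22 FPKM in the controls and 0.74 to 1.19 FPKM in the KO libraries, and ZNF385B was listed at 0 in all 6.

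ZNF462 encodes a large zinc finger protein involved in chromatin organisation during development. ZNF462 was at 0.79, 0.36 and 0.46 FPKM in the controls and at 0, 0.01 and 0.04 FPKM in the KO libraries. Vector control 1 was the high one. LMNTD1 was at 0.63, 0.71 and 0.59 FPKM in the controls and at 0 in all KO libraries, while the lamin genes LMNA, LMNB1 and LMNB2 were above 16 FPKM in all 6.

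CARD16 and G0S2 act inside the cell. CARD16 encodes a caspase recruitment domain protein that binds caspase-1 and limits its activation. CARD16 was at 0.46, 0.76 and 0.65 FPKM in the controls and at 0 in all KO libraries. CASP1, which lies beside it and is near-identical to it in sequence over the shared domain, reached at most 0.10 FPKM in any library. Reads that both genes could have given may have been divided between them, so the level of CARD16 is uncertain. IL18, whose product caspase-1 activates, was at 0.57, 0.98 and 1.27 FPKM in the controls and at 0.12, 0 and 0.03 FPKM in the KO libraries, and missed the rule through KO 1.

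G0S2 encodes an inhibitor of adipose triglyceride lipase, the product of PNPLA2. G0S2 was at 0.43, 0.45 and 0.81 FPKM in the controls and at 0 in all KO libraries. PNPLA2 was at 3.63, 13.3 and 13.2 FPKM in the controls and at 10.2, 4.04 and 3.94 FPKM in the KO libraries. Here vector control 1 lay with KO 2 and KO 3, and KO 1 with vector controls 2 and 3, an arrangement that the rule did not allow in G0S2. The lipid droplet gene PLIN2 was at 45.0 to 78.2 FPKM in the controls and 28.7 to 38.9 FPKM in the KO libraries, a log2 fold change of -0.99 that did not pass the test (limma, adjusted p = 0.131).

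Of the 45 KO values of the 15 genes, 35 were listed at 0, and 10 genes were at 0 in all 3 KO libraries. A value listed at 0 is not proof of absence, since all 13 mitochondrially encoded genes are also listed at 0 in these libraries. No fold change is given for these genes. The controls of 7 genes lay within 1.5-fold of each other (CAMK1G, RELN, DGKI, ZNF385D, RYR2, LMNTD1 and HAPLN1). The median coefficient of variation of the controls was 21.8%, and 22.7% over all rows in the same range of control values. Vector control 1 was the lowest control in 5 genes, the highest in 5 and between the others in 5. Among all 2831 rows in the range it was the lowest in 1157 and the highest in 1214, that is outside the other pair in 83.8%.

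Of the 2831 rows in the range after the names were left out, 15 met the rule (0.530%), and 2644 (93.4%) had at least 0.3 FPKM in all 3 KO libraries. Since this contrast chose the genes, nothing is read from the share. With the groups exchanged, 3 of 2860 rows met the rule (0.105%). Among them were LYZ (lysozyme), listed at 0 in all controls and at 1.45, 1.83 and 1.20 FPKM in the KO libraries, and PRSS2 (a trypsinogen), listed at 0 in all controls and at 0.50, 0.41 and 0.32 FPKM in the KO libraries.

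**Figure D2:**
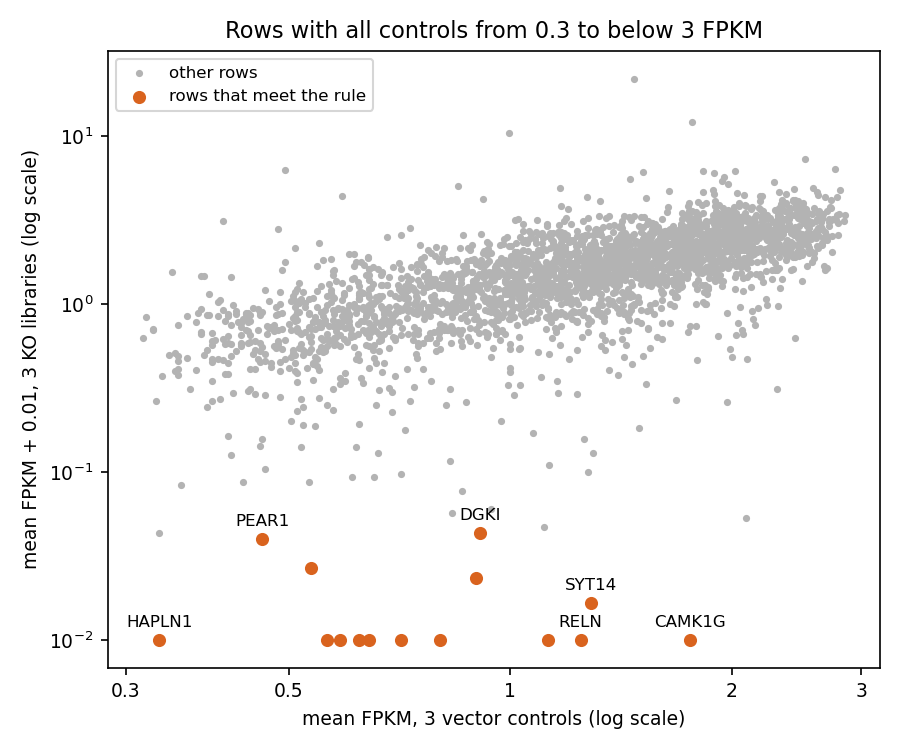
Mean FPKM of the 3 controls (log axis) against mean FPKM + 0.01 of the 3 KO libraries (log axis) for the 2831 rows with all controls from 0.3 to below 3 FPKM. The 15 genes (orange) lie at the bottom, 10 of them at 0 in all KO libraries, below a band that holds most other rows (grey).

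The values on either side of the thresholds show how sharply the group is bounded. Just inside the KO ceiling were DGKI and PEAR1, each reaching 0.05 FPKM, and ZNF462 at 0.04 FPKM. Just outside it were MYBPH (0.07 FPKM in KO 2), TNS4, TGFA and BCL11B (each 0.10 FPKM in their highest KO library) and ROBO4 (0.11 FPKM). Just inside the control floor were HAPLN1 at 0.31 FPKM, SLPI at 0.33 FPKM and PEAR1 at 0.34 FPKM in their lowest control. Below the floor were PPP1R14A, SYCE3, EMC10 and PDGFRL, each lowest in vector control 1 (0.29, 0.28, 0.26 and 0.22 FPKM), and the joined row of IL18R1 and IL1RL1 (0.23 FPKM in vector control 3). Above the control ceiling, and with the same names left out, 2 rows had KO values as low: LAMB3, and CREB3L3 with 0.45, 14.1 and 13.7 FPKM in the controls and 0 in all KO libraries. Leaving a library out can only add rows: without vector control 1 a further 10 rows met the rule, 25 in all, and without vector control 1 and KO 1 together 38 rows did.

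Long genes were frequent in the group. With the gene models of GENCODE 29, 6 of 15 genes spanned over 200 kb (40.0%): SYT14, RELN, DGKI, ZNF385D, RYR2 and LMNTD1. Among the 2815 annotated rows in the same range of control values, 301 did (10.7%). The span ran from 0.969 kb in G0S2 to 961 kb in ZNF385D, with a median of 111 kb, and of 36.1 kb over the rows in the range. The longest transcript had a median length of 5.61 kb, and of 3.96 kb over the rows in the range. A long span does not imply a long transcript, since the longest one of LMNTD1 is 1.73 kb. Length was not part of the rule, but transcript length bears on precision, since at a given FPKM a long transcript rests on more fragments. The mean control FPKM multiplied by that length in kb, which grows with the number of fragments behind a value, was 17.5 for SYT14, 14.4 for RELN, 0.488 for G0S2 and 0.350 for SLPI. These are estimates, since the authors' own transcript lengths are not known.

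Antisense transcription cannot be told apart where strand was not used in counting, and the labels do not say whether it was. Annotated antisense or intergenic non-coding genes on the opposite strand overlap 5 of the 15 genes (RELN, VCAN, ZNF385D, ZNF462 and G0S2), and none of these has a row of its own. CARD16 also overlaps CARD17 and a caspase-1 pseudogene on its own strand.

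The 15 genes are spread over 9 chromosomes, with 5 on chromosome 1, 2 on chromosome 5 and 2 on chromosome 7. CAMK1G, G0S2 and SYT14 lie within 588 kb on chromosome 1, with gaps of 61.5 kb between CAMK1G and G0S2 and 262 kb between G0S2 and SYT14 (GENCODE 29, GRCh38). LAMB3, the gene of the beta 3 chain of an anchoring laminin of epithelial basement membranes, lies between CAMK1G and G0S2, 0.932 kb from CAMK1G. LAMB3 was at 3.06, 4.34 and 4.39 FPKM in the controls and at 0.01, 0.03 and 0.03 FPKM in the KO libraries, and missed the rule only through the control ceiling of 3 FPKM. On the log2(FPKM + 1) scale it was lower in the KO libraries, with a log2 fold change of -2.26 ± 0.16 (SE, 3 against 3 libraries, limma adjusted p = 0.00177), and all 3 KO values lay below all controls.

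Not every gene of that stretch was near 0 FPKM in the KO libraries. C1orf74, between G0S2 and SYT14, was at 2.02, 0.30 and 0.62 FPKM in the controls and at 1.85, 2.72 and 2.70 FPKM in the KO libraries, so that vector control 1 lay among the KO values (log2 fold change 0.87, limma adjusted p = 0.225). UTP25, a ribosome biogenesis gene, was at 2.99 to 3.72 FPKM in the controls and 2.42 to 2.62 FPKM in the KO libraries (log2 fold change -0.26, adjusted p = 0.390). HSD11B1, TRAF3IP3 and SERTAD4 reached at most 0.07 FPKM in any library. HHAT, beyond SYT14, was at 0.21 to 0.28 FPKM in the controls and 0.11 to 0.20 FPKM in the KO libraries. In both UTP25 and HHAT all KO values lay below all controls.

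VCAN and HAPLN1 lie 55.5 kb apart on chromosome 5 with no other row between them. XRCC4, a gene of the repair of DNA double-strand breaks by end joining, is 118 kb from VCAN. XRCC4 was at 15.9, 12.6 and 13.1 FPKM in the controls and at 4.24, 5.17 and 5.58 FPKM in the KO libraries, with no overlap. Its log2 fold change was -1.31 ± 0.17 (SE, 3 against 3 libraries, limma adjusted p = 0.0175). Leaving out 1 library ended the call in 4 of 6 cases: the adjusted p (limma) rose to 0.0689 and 0.0843 when vector control 2 or 3 was left out, and to 0.0887 and 0.0767 when KO 2 or KO 3 was. TMEM167A, beyond XRCC4, was at 21.2 to 25.4 FPKM in the controls and 18.3 to 21.2 FPKM in the KO libraries (log2 fold change -0.18, adjusted p = 0.578). EDIL3, on the far side of HAPLN1, was at 0.15 to 0.22 FPKM in the controls and 0.04 to 0.11 FPKM in the KO libraries, with no overlap.

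**Figure D3:**
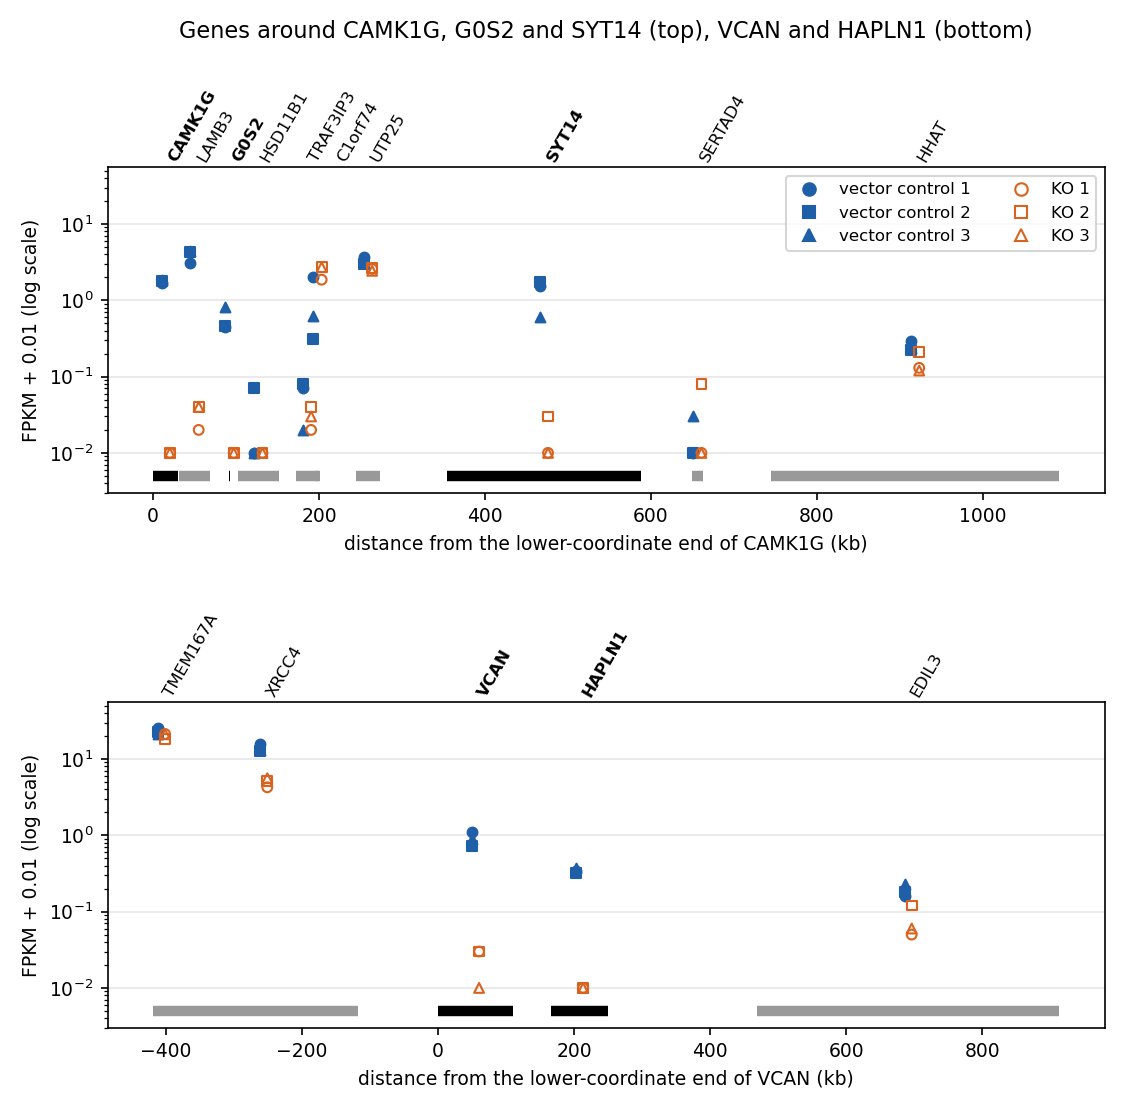
FPKM + 0.01 (log axis) of rows around CAMK1G, G0S2 and SYT14 (top) and around VCAN and HAPLN1 (bottom), against distance in kb, with controls filled blue and KO libraries open orange. Bars at the bottom give the gene spans, black for the 5 genes and grey for the others. LAMB3 is at 3.06 to 4.39 FPKM in the controls and at most 0.03 FPKM in the KO libraries. UTP25 is at 2.99 to 3.72 FPKM in the controls and, without overlap, at 2.42 to 2.62 FPKM in the KO libraries. TMEM167A is at 21.23 to 25.45 FPKM in the controls and 18.27 to 21.24 FPKM in the KO libraries.

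To see whether genes beside the 15 differed as well, the nearest tested gene on each side within 500 kb was read from a limma fit over all 9624 tested rows. These neighbours were not used by the rule. Across all rows, 130 were called at an adjusted p below 0.05 (1.35%), 81 lower and 49 higher in the KO libraries, and with quantile normalization 99 lower and 31 higher. The balance turned in other fits: 488 were lower and 841 higher without vector control 1, and 1424 lower and 2596 higher with robust variances and library weights. Of 17 neighbours, 2 were lower (11.8%, and 0.842% of all tested rows), LAMB3 and XRCC4, and 0 were higher (0.509% of all tested rows). LAMB3 passed the filter only through its controls and met the rule but for the control ceiling. Its call was thus close to fixed in advance, and nothing is read from the share. The median log2 fold change of the 17 neighbours was -0.24, and 0.08 over all tested rows. At an unadjusted p below 0.05 there were 7 of 17 (41.2%), and 17.5% of all tested rows.

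The other neighbours at the low end were RASSF8 next to LMNTD1, with a log2 fold change of -1.09 (adjusted p = 0.148), the joined row of CASP4 and CASP5 next to CARD16 (-0.90, adjusted p = 0.132) and SDC4 next to SLPI (-0.60, adjusted p = 0.141). At the high end were C1orf74, MTR next to RYR2 (0.62, adjusted p = 0.202), ORC5 and PSMC2 on either side of RELN (0.53 and 0.27) and PRCC next to PEAR1 (0.24). None of these passed the test, so neighbours of RELN, RYR2 and PEAR1 had values in both groups beside genes listed at or near 0 in the KO libraries. The count of 2 is small, and it ran from 1 to 7 when 1 library was left out, with 7 without vector control 1 and 1 without vector control 2, vector control 3, KO 2 or KO 3.

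**Figure D4:**
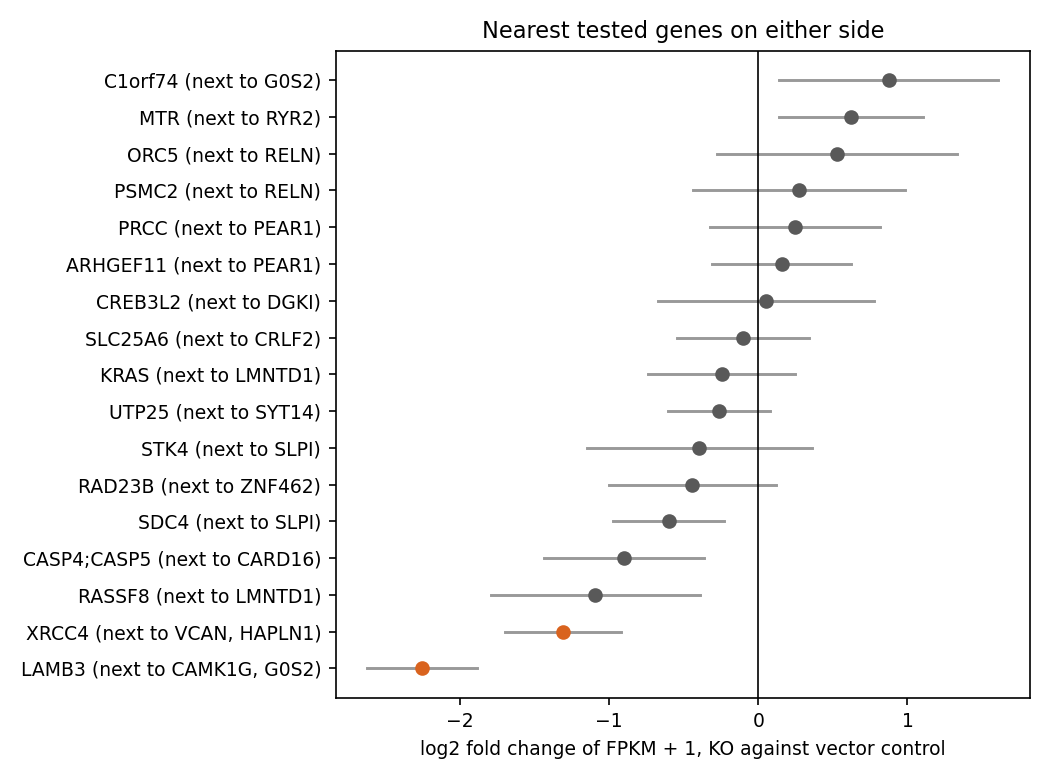
Log2 fold change of FPKM + 1, KO against vector control, with 95% confidence intervals from limma (3 against 3 libraries) for the 17 nearest tested genes on either side of the 15 genes. LAMB3 (-2.26) and XRCC4 (-1.31), in orange, passed the test and the other 15 (grey) did not.

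Genes that work with the 15, or are of the same family, could be tested only in part, and this test called none of those tested. No other synaptotagmin gene with a row of its own was tested, and neither was IL18. In 13 lists of partners, such as reelin signalling, calcium stores, diacylglycerol kinases, TSLP receptor signalling, the inflammasome and triglyceride lipolysis, 50 genes were tested and limma called 0, against 1.35% of all tested rows. At that share hardly any calls would be found among 50 genes, so nothing is read from the 0. At an unadjusted p below 0.05 there were 10 (20.0%, and 17.5% of all tested rows), and limma with robust variances and library weights called 21. Their median log2 fold change was 0.05.

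By symbol, 9 tested relatives shared the letters of a member's name before its first digit, all with the letters CAMK, CARD or CRLF. The large ZNF stem of ZNF385D and ZNF462 was left out. Limma called 0 of the 9, a count too small to read, and 2 had an unadjusted p (limma) below 0.05. Those were CARD10 (log2 fold change -0.37, adjusted p = 0.215) and CARD8 (0.48, adjusted p = 0.236). The others included CAMK1, CAMK2D, CAMK2G, CAMK2N1, CARD19 and CRLF3. Limma with robust variances and library weights called 3 of the 9.

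None of the 15 genes was in any of 14 lists of cell-type markers and pathway genes. Of 101 tested genes of these lists, 18 were lower and 1 higher in the KO libraries (18.8% called, against 1.35% of all tested rows), with a median log2 fold change of -0.45. The lists were written with earlier results of these libraries known, and nothing particular to them is read from the share. NF-kB targets gave 6 of 19 lower, among them CXCL8 (log2 fold change -2.97, limma adjusted p = 0.00799) and BIRC3 (-1.72, adjusted p = 0.00484). AP-1 and ERK response genes gave 4 of 29 lower, among them JUN (-1.04, adjusted p = 0.0303), and type I interferon response genes 2 of 11 lower, IFIT3 and OASL. OASL passed the filter only through its controls. The TGF-beta list gave 1 of 12 lower (SNAI2), the WNT list 1 of 7 (DKK1), and neither list gave a gene called higher. In the TGF-beta list 7 of 12 had a log2 fold change below 0. ID2 and ID3 of that list were higher in each KO library than in any control. They narrowly missed the threshold (log2 fold changes 1.33 and 1.35, limma adjusted p = 0.0609 and 0.0587).

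Since several of the 15 genes are known from neurons, leukocytes or connective tissue, the markers of those cells are given beside them. Neuronal markers summed to 21.7 to 24.7 FPKM in the controls and 2.67 to 3.32 FPKM in the KO libraries. Most of the sum in the controls, but not in the KO libraries, was SCG2, a secretory granule protein, at 18.97, 17.54 and 20.24 FPKM in the controls and 0.49, 0 and 0.14 FPKM in the KO libraries. SCG2 and the microtubule gene MAP2 were the 2 of 3 tested neuronal genes that were lower (log2 fold changes -4.06 and -1.08, limma adjusted p = 0.000198 and 0.0201). The other tested gene, SNAP25, was not lower, at 0.73 to 1.02 FPKM in the controls and 0.87 to 1.71 FPKM in the KO libraries (log2 fold change 0.23, limma adjusted p = 0.531). Leukocyte markers summed to 4.04 to 9.75 FPKM in the controls and 4.29 to 6.87 FPKM in the KO libraries, and 14 of 27 were listed at 0 in all 6 libraries, PTPRC and CD3E among them. Of the 4 tested, HLA-DRA was lower and LYZ higher. SCG2, MAP2 and HLA-DRA passed the filter only through their controls, and LYZ only through the KO libraries. The direction of these calls was thus close to fixed in advance.

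Fibroblast and stellate cell markers summed to 77.3 to 117 FPKM in the controls and 72.5 to 104 FPKM in the KO libraries, with 1 of 6 tested genes lower (RGS5). Pancreatic acinar markers reached a sum of at most 1.02 FPKM in any library, with no gene tested. Islet markers summed to 1.86 to 5.60 FPKM, and 0 of 1 tested gene was called. Ductal markers summed to 60.1 to 90.1 FPKM with 0 of 3 called, squamous genes to 4.21 to 11.2 FPKM with 0 of 4 called, and endothelial markers had 0 of 2 called. Of the cancer-testis genes, 1 of 1 tested was lower (PRAME). RGS5 and PRAME passed the filter only through their controls, so the direction of these calls was close to fixed in advance. The part of other cells in the values of the 15 genes was not tested. In bulk samples, fewer cells with a gene on and less RNA per cell cannot be told apart.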

How the data were processed

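Total RNA of 6 MIA PaCa-2 libraries, 3 KO and 3 vector control, was sequenced. The authors deposited 1 table of FPKM per gene. Cutadapt, FastQC, HISAT2 and the build hg19 are named in the submitters' processing notes, and the tool that gave FPKM is not given in the sources used here. No counts were used, so depth is unknown and no counting interval is given. Of 18268 rows, 990 join several symbols, and 18097 were matched by symbol to GENCODE 29 (GRCh38), which was used only for chromosome, gene order, gaps and lengths. Promoters came from RefSeq.

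The 15 genes were found by the rule on FPKM. All other tests used limma 3.58.1 in R 4.3.3 on log2(FPKM + 1), with variances moderated along a trend in mean level, over the 9624 rows with at least 1 FPKM in at least 3 libraries, two-sided, with Benjamini-Hochberg adjustment over all of them and a threshold of 0.05. Fold changes on this scale understate the change of low genes. The fit was tested on simulated data with the same noise in every library, in which only genes well above the filter were changed. That setting does not bear on libraries that stand apart or on genes near 0 FPKM. An exact permutation test of 3 against 3 libraries cannot go below p = 0.1 and was not used.

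The members, lists and windows were chosen with earlier results of these data known. The partner lists were written after the members were known and with the values of some partners already seen (CASP1, CASP4 with CASP5, CARD18, BCAN, HAPLN2, PI3, WFDC genes and IL18). Named neighbours and relatives are those called and the 5 lowest and highest fold changes, and partners were named for their roles after their values were seen. Alternatives changed the rule's thresholds, pseudocount, filter, scaling, fit, window and libraries. Replicate numbers did not pair the samples. Values of a few genes are not reported here.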

Additional observations from a re-analysis of the deposited data

How the results depend on the processing

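Median scaling left the group of 15 genes as it was, 9 rows met a control floor of 0.5 FPKM, and 15 to 25 rows met the rule with 1 library left out, which can only add rows (25 without vector control 1). A KO ceiling of 0.02 FPKM gave 12 rows and one of 0.1 FPKM 19 and a control floor of 0.2 FPKM 21. Of 130 genes called, the number became 241 with no filter, 59 with a filter at 5 FPKM, 4020 with robust variances and library weights (1424 lower and 2596 higher), and 25 to 1329 with 1 library left out. The neighbours called, 2 in all, became 1 with the filter at 5 FPKM, 11 with robust variances and library weights, 1 in a window of 100 kb, and 1 to 7 with 1 library left out. Relatives (0) became 3 with robust variances and library weights and 0 to 1 with 1 library left out, and the fixed lists (19) became 67 and 6 to 42, and 12 with the filter at 5 FPKM. The cause was not tested.

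Same-numbered libraries had correlations of their deviations from the group means of -0.37, -0.15 and -0.26, so the numbers do not pair the samples. With the replicate block the calls were 7 over all genes, 0 among neighbours, 1 in the fixed lists and 0 among relatives, with an adjusted p (limma) of 0.0525 for LAMB3 and 0.169 for XRCC4.

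Some alternatives were chosen after seeing the data, among them all those of the partners and the rule with no control ceiling (17 rows). Partners (0) became 21 with robust variances and library weights, 0 to 7 with 1 library left out and 0 with the replicate block. Without vector control 1 and KO 1 together, 38 rows met the rule, and the calls were 3575 over all genes (1310 lower and 2265 higher), 9 among neighbours, 3 among relatives, 62 in the fixed lists and 15 among partners. The leave-one-out fits were first run with the filter redone on the 5 libraries that remain, and were set to the filter over all 6 after those counts were seen. With the filter redone the calls were 1 to 1245 over all genes (10 without vector control 2), 0 to 5 among neighbours, 0 to 1 among relatives, 0 to 35 in the fixed lists (4 without KO 3) and 0 to 6 among partners. The lowest, 1 over all genes and 0 in the fixed lists, came without vector control 3. By construction that filter drops genes above 1 FPKM in the controls only once a control is left out, LAMB3 among them. The unknown depth limits all genes near 0 FPKM.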
